A study of Solanum tuberosum with 136 samples.

Results

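Primary buds and flesh of potato tubers were compared after 18 weeks of storage without ethylene, the last sampling of control tubers of the cultivar Russet Burbank. The comparison rests on the 8 gene count libraries whose titles name control week 18, 4 of primary bud and 4 of flesh, in a series of 34 groups of 4 libraries. All tubers were of that cultivar, and both groups carry the treatment label control. The series sampled control tubers at weeks 0, 3, 6, 9, 12, 15, 16, 17 and 18, and other tubers were kept under 10 ppm ethylene for 15 weeks and then returned to air. Of those, the 4 bud and 4 flesh libraries of week 18, after 15 weeks of ethylene and 3 weeks of air, are used here, beside the bud and flesh libraries of the other control weeks. No label ties a library to a tuber of its own, so each p-value below reflects only how far these libraries scatter, which may be technical.

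The bud, or eye, of a potato tuber holds the shoot meristem from which a sprout grows, while the flesh is storage parenchyma that keeps starch and storage proteins. After harvest the buds are dormant. With time in storage dormancy ends, cells of the meristem divide again, and the flesh supplies sugars and amino acids to the sprout. Ethylene, a gaseous plant hormone, is applied to stored potatoes to delay sprouting. A comparison of both tissues at the end of storage shows which transcripts set the growing point apart from the store that feeds it.

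Genes appear under the identifiers of the deposited table, which gives no product names, and none of the identifiers matched the gene name table at hand. No marker gene of bud or flesh could therefore be looked up, and the tissue labels were checked only by the likeness of the libraries. Correlations of log2 levels across genes were between 0.990 and 0.993 among the 4 buds and between 0.986 and 0.990 among the 4 flesh libraries, against 0.902 to 0.927 between a bud and a flesh library. Bud replicate 2 was nearest to the flesh, with 0.923 to 0.927. Libraries held 26855987 to 33033204 counts in bud and 24300933 to 32227408 counts in flesh. Over 11673 genes with at least 5 CPM (a gene's counts relative to the total of the library, scaled between libraries) in both tissues, the median coefficient of variation was 8.86% in bud and 12.2% in flesh. No libraries of the 8 were identical.

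One property of the files bears on every low value. The 8 libraries hold 97827 values of 0 but only 1 value of 1, 51 of 2 and 246 of 3, with larger numbers at each step up to 949 values of 10. Small counts are thus sparse beside the values of 0, and a 0 here is not a measurement of absence. Such genes are described as listed at 0, with no fold. Values of 0 made up 30.5% of the bud values and 43.8% of the flesh values.

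At week 18 the buds differed from the flesh in most of the genes tested. Of 24835 genes tested, 13681 (55.1%) passed a threshold of 0.05 on the adjusted p from edgeR's quasi-likelihood test. Of these, 8251 (33.2% of the genes tested) were higher in bud and 5430 (21.9%) were lower in bud. The sizes of the differences were unequal. The higher genes had a median log2 difference of 1.86, bud minus flesh, and 31.4% of them lay within 2-fold, while the lower genes had a median of -0.77 and 67.97% lay within 2-fold. Fitted differences of genes listed at 0 in flesh enter the first median and have no interpretable size. At 8-fold or more, 3197 genes (12.9% of those tested) were higher in bud and 0.54% were lower. In 7593 genes (30.6%) all 4 buds were above all 4 flesh libraries, and in 4852 (19.5%) they were below. In bulk tissue, fewer cells that express a gene and less of its RNA per cell cannot be told apart.

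Many of the higher genes were listed at 0 in flesh. Of the genes tested, 2181 had counts in all 4 buds and were listed at 0 in all 4 flesh libraries. The same libraries chose and tested them, so the calls in 2097 of them largely follow from the choice. The reverse held for 17 genes. Among the 16355 genes with counts in all 8 libraries, a restriction that leaves out genes at 0 in either tissue, 9732 (59.5%) were called, 4482 (27.4%) higher in bud and 5250 (32.1%) lower, and 153 against 34 differed by 8-fold or more. With every low count raised to a floor of 0.63 CPM (20 counts in the median library), 7756 genes (31.2%) were still called higher in bud and 5697 (22.9%) lower, and 903 were higher in bud and 35 lower at 8-fold or more.

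**Figure D1:**
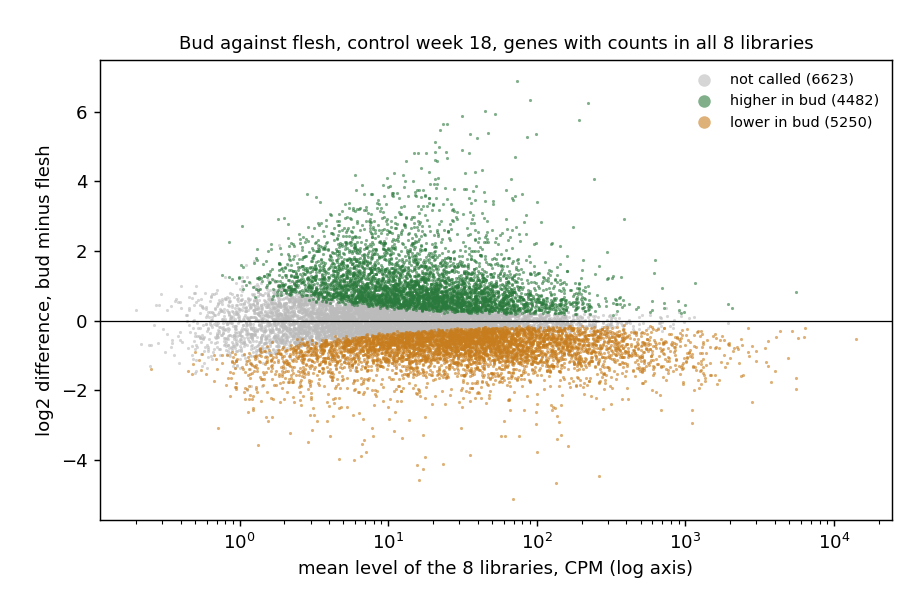
The log2 difference between bud and flesh (vertical axis) is plotted against the mean level in CPM on a log axis (horizontal axis), 1 point per gene with counts in all 8 libraries, coloured by the test. Differences reach further upwards at low and middle levels, and nearly all coloured points above 1000 CPM lie below 0.

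The direction changed with the level of the gene. Genes were binned by the mean CPM of the tissue in which they were higher, which itself uses the level at week 18. Under 1 CPM, 16.8% of 5141 genes were higher in bud and 1.61% lower. Between 1 and 10 CPM, 42.98% of 8357 genes were higher in bud and 11.7% lower. Between 10 and 100 CPM the shares were 36.9% and 32.1% of 9143 genes. Between 100 and 1000 CPM, 20.1% were higher and 62.9% lower, of 2025 genes. Above 1000 CPM, 9 of 169 genes were higher in bud and 156 (92.3%) were lower, 80 of them by 2-fold or more. With DESeq2's size factors the share lower was 58.9% between 100 and 1000 CPM and 90.5% above 1000 CPM. These directions rest on the scaling between libraries. TMM scaling factors, which multiply a library's total, were 1.15 to 1.18 in buds and 0.881 to 0.902 in flesh. The 10 genes with most bud counts held 6.15% of bud and 6.04% of flesh counts, yet 9 were called lower in bud. The 100 with most bud counts held 19.7% and 23.6%. Single genes were not tested without these factors.

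The counts of the flesh were held by fewer genes. The 100 genes with most counts took 19.8% ± 0.47 of a bud library and 26.03% ± 0.30 of a flesh library (SD, n = 4 each), and the 1000 with most counts took 51.4% ± 0.79 in bud and 62.5% ± 0.44 in flesh. A bud library had 19225 ± 160 genes at 1 CPM or more, and a flesh library 16563 ± 66.7. In these 3 measures the groups did not overlap, and each gave p = 0.0286 in a two-sided exact permutation test, the smallest that 4 against 4 allows (0.0357 adjusted over 5 measures of a library). Total counts were among the 5 and gave p = 0.229 by the same exact test. The tissues shared much of their most abundant RNA, 6 of the 10 genes with most counts, 71 of 100 and 772 of 1000. Of the 100 most abundant flesh genes, 96 were called lower in bud and 3 higher, a direction that choosing them in flesh favours. Of the 100 most abundant bud genes, 77 were called lower in bud and 14 higher.

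Among named genes, those with the largest differences at 20 CPM or more in the higher tissue are given first. They were chosen among called genes whose groups do not overlap, so their separation and low p-values follow from the choice. Soltu.DM.07G014170 had 660, 492, 880 and 591 CPM in the 4 buds and was listed at 0 in the 4 flesh libraries. Soltu.DM.04G008340 had 379, 213, 301 and 270 CPM in buds and was also listed at 0 in flesh. No bud was near the flesh in either gene, and the adjusted p-values were 4.72e-34 and 1.70e-35. Both were near the bottom of the scale in buds at week 0, where Soltu.DM.07G014170 averaged 1.14 ± 0.17 CPM and Soltu.DM.04G008340 2.45 ± 0.90 CPM (SD, n = 4 each). From week 0 to week 18 the buds rose by 9.16 (SE 0.46) and 6.90 (SE 0.30) on the log2 scale in these genes, with adjusted p-values of 2.11e-35 and 1.04e-35. The bud means of Soltu.DM.07G014170 were 1.14, 4.50, 28.2, 63.6, 218, 694, 565, 570 and 656 CPM at weeks 0, 3, 6, 9, 12, 15, 16, 17 and 18, and those of Soltu.DM.04G008340 were 2.45, 4.99, 47.3, 80.7, 139, 137, 200.4, 216 and 291 CPM. The first was thus near its week 18 level from week 15 on, and the second had its highest mean at week 18. Flesh means stayed under 1 CPM at every control week in both genes. In buds after ethylene at week 18, Soltu.DM.07G014170 had 342, 1086, 624 and 533 CPM and Soltu.DM.04G008340 had 144, 274, 243 and 169 CPM, with flesh listed at 0.

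Of the genes lower in bud, Soltu.DM.10G029820 had 3.39, 3.35, 3.42 and 5.27 CPM in buds, against 102.3, 143, 142 and 151 CPM in flesh, a log2 difference of -5.14 (SE 0.27, adjusted p = 8.45e-34). Bud replicate 4 stood above the other 3 buds but far below every flesh library. At week 0 the gene had averaged 50.9 ± 3.84 CPM in buds and 238 ± 32.5 CPM in flesh, and it fell by week 18 in both tissues, by 3.74 (SE 0.28) in bud and by 0.82 (SE 0.18) in flesh on the log2 scale (adjusted p = 1.48e-22 and 0.000148). Soltu.DM.09G026230 had 8.88, 10.9, 10.2 and 10.96 CPM in buds and 266, 259, 259 and 252 CPM in flesh, a log2 difference of -4.67 (SE 0.14, adjusted p = 1.09e-57). Its libraries agreed closely within each tissue. This gene stood at 0.195 ± 0.226 CPM in buds and 1.26 ± 0.192 CPM in flesh at week 0, and it rose in both tissues, by 5.68 (SE 0.36) in bud and 7.68 (SE 0.20) in flesh (adjusted p = 2.79e-28 and 7.68e-64). Its bud means were 0.195, 4.81, 7.61 and 15.6 CPM and its flesh means 1.26, 111.9, 221 and 236 CPM at weeks 0, 3, 6 and 9. At each later control week its flesh averaged 105.6 CPM or more.

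**Figure D2:**
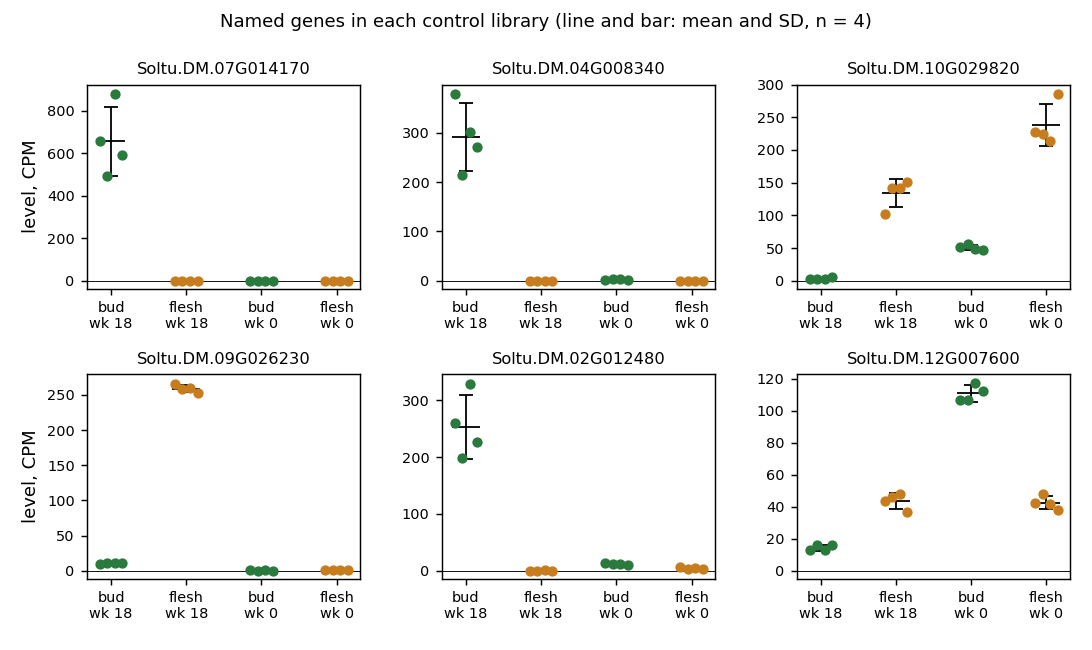
Each panel gives the level in CPM (vertical axis) of 1 gene in every control library of bud and flesh at week 18 and week 0 (horizontal axis), with the mean and SD of 4 libraries. The first 2 genes are high in week 18 buds and at or near 0 elsewhere, Soltu.DM.10G029820 and Soltu.DM.09G026230 are higher in flesh at week 18, Soltu.DM.02G012480 is high in week 18 buds and low elsewhere, and Soltu.DM.12G007600 is the gene with bud above flesh at week 0 and below it at week 18.

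Genes with counts in 1 tissue and a listing at 0 in the other were nearly all bud genes. At least 1 CPM in all 4 buds with 0 in all 4 flesh libraries was met by 1221 genes, and the reverse was met by 6 genes. Of these, 1217 and 6 were called, which follows from a choice by the same libraries and adds no support. The 1221 genes had a median of 3.77 CPM in bud, and 83 of them reached 20 CPM. Many of them were low in buds earlier on: the bud mean was 1 CPM or more in 628, 558, 659, 599, 964, 1083, 1157 and 1190 of the 1221 genes at weeks 0, 3, 6, 9, 12, 15, 16 and 17, although week 18 buds had chosen them. Other libraries showed the same listing in part. In 515 of the 1221 genes the flesh was listed at 0 in every library of all 9 control weeks, and in 902 it was listed at 0 in the 4 flesh libraries of week 18 after ethylene. The 9 weeks include week 18, whose flesh libraries chose these genes. Neither count of the 1221 is set against the share of all genes tested, so both are descriptions only. The 2 genes with most CPM in this set were Soltu.DM.07G014170 and Soltu.DM.04G008340, described above.

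Differences fell on neighbouring identifiers in places. Runs of 6 or more consecutive tested identifiers, all called in the same direction and 2-fold or more apart, numbered 26 for genes higher in bud (190 genes) and 1 for genes lower in bud (9 genes), in a table where 22.8% of genes were higher and 7% lower by that much. The longest, from Soltu.DM.10G018690 to Soltu.DM.10G019020, held 18 genes. Their summed level was 758 ± 170 CPM in buds and 4.83 ± 2.16 CPM in flesh at week 18 (SD, n = 4 each), and 16 of the 18 were listed at 0 in all 4 flesh libraries. At week 0 the same sum was 172 ± 17.7 CPM in buds and 124.9 ± 4.55 CPM in flesh. Of the 18 genes, 11 were already called higher in bud at week 0, against 28.2% of all genes tested. A shift between the weeks was called in 1 of the 18. The test of a shift cannot call genes listed at 0 in flesh at both weeks, so this count does not show that the others kept their difference. The run of genes lower in bud went from Soltu.DM.09G030160 to Soltu.DM.09G030240, with a summed level of 41.7 ± 9.37 CPM in buds and 467 ± 28.5 CPM in flesh at week 18, and 66.8 ± 7.45 CPM in buds and 236 ± 15.3 CPM in flesh at week 0. No source used here says how reads shared by similar gene copies were counted, and levels of single members of a run are therefore uncertain.

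The transcript table gave a like picture and added differences between transcripts of a gene. Of 34134 transcripts tested, 13040 (38.2%) were called, 8229 (24.1%) higher in bud and 4811 (14.1%) lower. The transcripts with the largest differences in the higher direction were Soltu.DM.07G014170.1 and Soltu.DM.04G008340.1, of the genes named first. In the lower direction Soltu.DM.01G044210.2 was listed at 0 in the 4 buds and had 112.9, 45.2, 47.3 and 109.3 CPM in flesh (adjusted p = 0.00286).

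In 230 of 3568 genes (6.45%) with more than 1 transcript past the filter, the shares of the transcripts differed between bud and flesh (edgeR diffSpliceDGE). Soltu.DM.04G023520 is a clear case. Its transcript Soltu.DM.04G023520.1 had 25.7, 29.4, 25.1 and 30.3 CPM in buds and was listed at 0 in flesh. Its transcript Soltu.DM.04G023520.3 had 0.989, 0.255, 0.342 and 0.372 CPM in buds and 36.1, 40.7, 38.3 and 42.3 CPM in flesh. The first made up 98.2% ± 1.3 of the gene's tested transcripts in bud, and the second all of them in flesh (adjusted p = 2.48e-07 for the shares). In Soltu.DM.04G005230, transcript Soltu.DM.04G005230.1 averaged 12.6 ± 2.14 CPM in buds and 0.240 ± 0.480 CPM in flesh, and transcript Soltu.DM.04G005230.6 was listed at 0 in buds and averaged 12.1 ± 2.14 CPM in flesh (SD, n = 4 each, adjusted p = 0.000529 for the shares). The difference in Soltu.DM.04G005230.1 itself (log2 5.59, SE 2.01, adjusted p = 0.0196) was not called without flesh replicate 1 (adjusted p = 0.0501) or 2 (0.0586). The share of such genes was unstable. It was 10.4%, 12.3%, 11.8% and 11.99% without flesh replicate 1, 2, 3 and 4 in turn, 6.11% to 7.38% without a bud library and 12.9% with limma's diffSplice.

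Set beside the earlier weeks, week 18 had the largest number of genes higher in bud among the 9 control weeks. That number was 7008, 6682, 6779, 6436, 7286, 7841, 7957, 7636 and 8251 at weeks 0, 3, 6, 9, 12, 15, 16, 17 and 18, which is 28.2%, 26.9%, 27.3%, 25.9%, 29.3%, 31.6%, 32%, 30.7% and 33.2% of the genes tested. Genes lower in bud showed no such order. They made up 21%, 21.5%, 20.7%, 19.8%, 20.4%, 22.4%, 22.8%, 22.5% and 21.9% of the genes tested at the same weeks, with the lowest number, 4925, at week 9 and the highest, 5659, at week 16. Genes at 1 CPM or more numbered 18069 ± 72.6 per bud library at week 0, 17888 ± 113.6 at week 9 and 19225 ± 160 at week 18. In flesh they numbered 16636 ± 167, 16688 ± 48.8 and 16563 ± 66.7 at the same weeks (SD, n = 4 each).

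**Figure D3:**
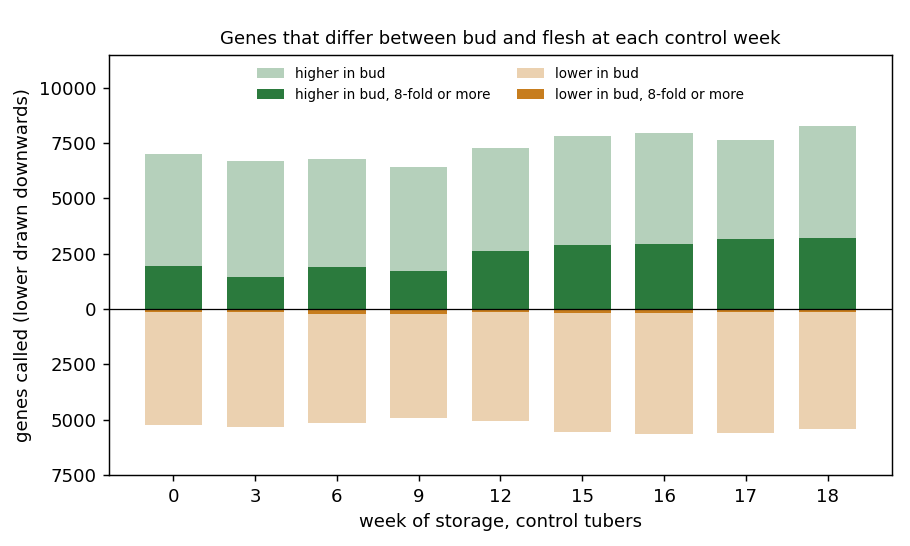
Bars give the number of genes called at each control week, higher in bud upwards and lower in bud downwards, with the part at 8-fold or more in the darker shade. At 8-fold or more, genes higher in bud number 1956 at week 0 and 3197 at week 18, and those lower in bud make up 0.54% of the genes tested at week 18. Both numbers include genes listed at 0 in flesh, whose fold has no interpretable size. At week 18, 153 genes with counts in all 8 libraries were that far higher in bud, and 903 genes with low counts raised to a floor. These 2 counts were made for week 18 only.

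The genes that set bud and flesh apart at week 18 were shared with the late weeks more than with the middle of storage. Of the 8251 genes higher in bud, 57.1% were called the same way at week 0 and 38.1% at week 9, and the late weeks 15 and 16 shared 74.6% and 80.9%. Of the 5430 genes lower in bud, 66.3% were called the same way at week 0 and 31.03% at week 9, and weeks 15 and 16 shared 72.4% and 82.1%. As shares of the other list, the genes in common were 67.2% and 68.9% of the higher and lower genes of week 0, and 48.8% and 34.2% of those of week 9. Weeks 6 and 9 stood apart. At week 9, 1286 of the genes higher in bud at week 18 were lower in bud and 1478 of the lower genes were higher, while at week 0 these numbers were 186 and 271.

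Across 12011 genes with a mean of at least 5 CPM in both tissues over the control weeks, the tissue differences of week 18 correlated with those of weeks 0, 3, 6, 9, 12, 15, 16 and 17 at a Spearman coefficient of 0.71, 0.71, 0.14, -0.04, 0.71, 0.81, 0.91 and 0.81. Genes are not independent replicates, and these values are descriptions. Over 13251 genes, the mean log2 levels of week 18 buds correlated with those of buds at weeks 0, 3, 6, 9, 12, 15, 16 and 17 at 0.872, 0.911, 0.851, 0.872, 0.962, 0.980, 0.991 and 0.991. In flesh the correlations were 0.937, 0.934, 0.937, 0.963, 0.966, 0.977, 0.991 and 0.967 at the same weeks. Whether sampling or handling differed at weeks 6 and 9 is not stated in the labels and was not tested.

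**Figure D4:**
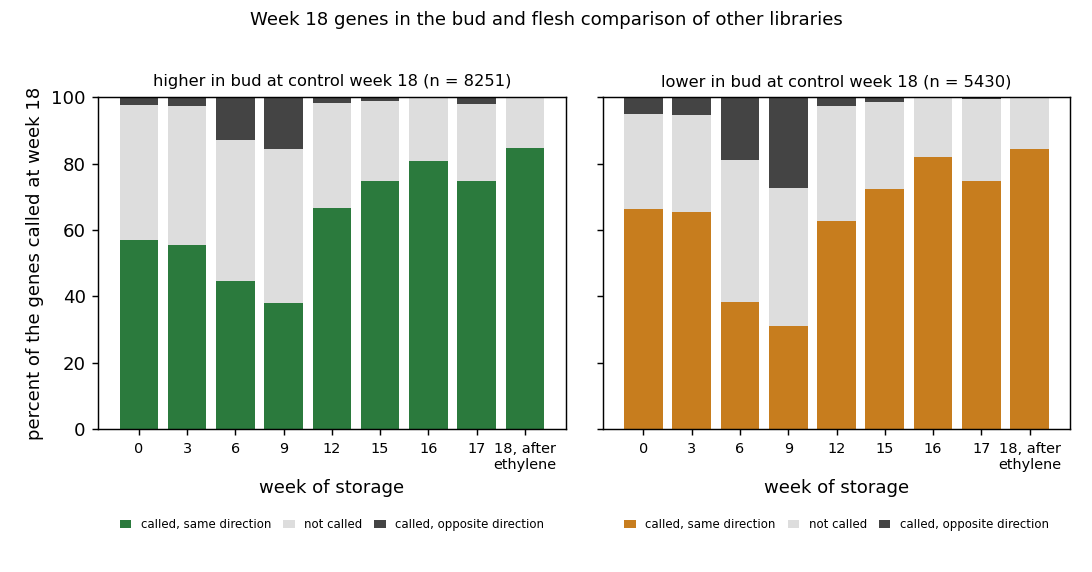
Bars give the percent of the genes called at control week 18 (left panel higher in bud, right panel lower in bud) that were called the same way, not called, or called the opposite way in other libraries, by week of storage. Shares in the same direction are lowest at week 9, at 38.1% and 31.03%, and highest after ethylene, at 84.7% and 84.5%.

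Few of the week 18 calls were unique to that week. Of the 8251 genes higher in bud, 1592 (19.3%) were called higher at all 8 other control weeks and 289 (3.50%) at none of them. Of the 5430 genes lower in bud, 596 (10.98%) were called lower at all 8 and 182 (3.35%) at none. Among the 3197 genes 8-fold or more higher in bud the shares were 29.4% and 2.82%. A gene that passed at week 18 and missed the threshold elsewhere is not shown to differ between the weeks.

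The change within each tissue since week 0 was counted for the genes with wide differences. From week 0 to week 18, 48.2% of all genes tested changed in bud, 25.9% rising and 22.3% falling, and 30.4% changed in flesh, 14.8% rising and 15.6% falling. Of the 3197 genes 8-fold or more higher in bud at week 18, 1828 (57.2%) rose in bud and 398 (12.4%) fell, while in flesh 362 (11.3%) fell and 25 (0.782%) rose. Of the 621 of them listed at 0 in flesh at week 18 but not in every flesh library of week 0, 175 (28.2%) rose in bud, near the share of all genes, 153 (24.6%) fell in bud and 170 (27.4%) fell in flesh. The 849 with flesh counts at week 18 held 477 (56.2%) that rose in bud, 148 (17.4%) that fell in bud and 192 (22.6%) that fell in flesh. Among the genes 8-fold or more lower in bud, 0.54% of those tested, 48 (35.8%) rose in flesh, 15 (11.2%) fell in flesh, 28 (20.9%) fell in bud and 7 (5.22%) rose in bud. Both tissues of week 18 enter the choice of these genes, so counts of changes toward the wider difference are raised by the choice itself.

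How far the tissue difference itself had changed since harvest was tested by subtracting the difference at week 0 from that at week 18. In 4561 genes (18.4%) the differences of both weeks were unequal, 2026 of them (8.16%) shifted toward bud and 2535 (10.2%) toward flesh. Which direction held more genes depended on the method. The DESeq2 test gave 2805 toward bud and 2693 toward flesh, and low counts raised to a floor gave 3516 and 3298. Such a shift equals the change in bud minus the change in flesh, so the counts that follow largely restate it and are no separate support. Of the 2026 genes shifted toward bud, 1197 rose in bud from week 0 to week 18 and 1014 fell in flesh. Of all genes tested, 25.9% rose in bud and 15.6% fell in flesh. Of the 2535 shifted toward flesh, 1637 fell in bud and 1196 rose in flesh, against 22.3% and 14.8% of all genes tested. Of 4917 genes called at week 18 and not at week 0, only 1450 passed this test, so most of the difference between the 2 lists was not itself established. In 8307 genes called the same way at both weeks, 1463 passed it. The test cannot call genes listed at 0 in flesh at both weeks, since a difference of differences then has no finite value. Of the 3197 genes 8-fold or more higher in bud at week 18, 1727 were of that kind, and 1176 of them (68.1%) rose in bud from week 0 to week 18, while 97 fell, against 25.9% and 22.3% of all genes tested. The same week 18 buds chose these genes, so the share that rose is raised by the choice and does not stand in for the test.

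Soltu.DM.02G012480 had 261, 199, 330 and 227 CPM in buds at week 18, and in flesh it was listed at 0 in 3 libraries and had 0.841 CPM in replicate 3. At week 0 it had 13.97, 10.9, 12.2 and 9.66 CPM in buds and 6.07, 3.13, 5.23 and 2.75 CPM in flesh. The bud rose by 4.44 (SE 0.26) and the flesh fell by 4.57 (SE 1.12), with adjusted p-values of 4.59e-31 and 0.000522, and the difference shifted by 9.01 (SE 0.98) on the log2 scale toward bud (adjusted p = 3.78e-13). Soltu.DM.01G002240 averaged 28.5 ± 7.9 CPM in bud and 0.167 ± 0.334 CPM in flesh at week 18, and 4.08 ± 0.96 CPM in bud and 4.42 ± 0.72 CPM in flesh at week 0, where it was not called (SD, n = 4 each), a shift of 7.39 (SE 0.87, adjusted p = 4.71e-12). In each gene a single flesh library of week 18 held counts, so the size of the shift is uncertain.

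Other genes shifted toward flesh. Soltu.DM.12G024710 had 16.4, 14.4, 19.3 and 19.7 CPM in buds and 16.0, 8.97, 9.39 and 7.25 CPM in flesh at week 18, groups that overlapped although the bud was called higher, by 0.76 (SE 0.23, adjusted p = 0.00368). At week 0 it had 61.5, 57.6, 44.5 and 57.5 CPM in buds, and in flesh it was listed at 0 in 3 libraries and had 1.23 CPM in the other. Its difference shifted by -6.75 (SE 0.56, adjusted p = 1.31e-18), with a fall in bud and a rise in flesh. Soltu.DM.07G003570 averaged 2.39 ± 0.55 CPM in bud and 3.77 ± 0.87 CPM in flesh at week 18, where it was not called, and 24.3 ± 4.46 CPM in bud and 1.90 ± 1.05 CPM in flesh at week 0 (SD, n = 4 each), a shift of -4.34 (SE 0.68, adjusted p = 2.13e-07).

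The direction had turned round in 457 of the 24835 genes tested, 186 of them higher in bud at week 18 and lower at week 0, and 271 the other way. The shift was called in all 457, which opposite calls at both weeks in the same libraries nearly fix. These were small differences as a rule, with a median size of 0.77 and 0.65 on the log2 scale at weeks 18 and 0 in the 186 genes, and of 0.51 and 0.49 in the 271. Soltu.DM.12G007600 is the clearest by level. It had 12.8, 15.9, 12.8 and 16.2 CPM in buds and 43.4, 45.9, 48.1 and 36.6 CPM in flesh at week 18, and 106.7, 106.7, 117.5 and 112.7 CPM in buds and 42.5, 48.2, 41.5 and 37.9 CPM in flesh at week 0. The groups did not overlap at either week. The bud fell by 2.95 (SE 0.17, adjusted p = 1.12e-31) between the weeks, the flesh differed by 0.03 (SE 0.16) and was not called, and the difference shifted by -2.98 (SE 0.23, adjusted p = 5.17e-20). The other 3 genes with the largest turns were low at both weeks. Soltu.DM.03G026560 averaged 3.17 CPM in bud and 0.307 CPM in flesh at week 18, and was listed at 0 in bud and averaged 0.411 CPM in flesh at week 0. Soltu.DM.11G006410 averaged 0.753 CPM in bud and was listed at 0 in flesh at week 18, against 0.0753 CPM in bud and 0.816 CPM in flesh at week 0. Soltu.DM.05G006550 averaged 2.19 CPM in bud and 5.51 CPM in flesh at week 18, against 0.446 CPM in bud and a listing at 0 in flesh at week 0. With low counts raised to a floor the shift of Soltu.DM.05G006550 was no longer called (adjusted p = 0.0692).

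Among the 169 genes above 1000 CPM at week 18, which were chosen by that level, 140 had a shift toward flesh called since week 0 and 1 a shift toward bud. The median log2 difference of these genes was -0.94 at week 18 and -0.23 at week 0. Over the weeks 0, 3, 6, 9, 12, 15, 16, 17 and 18 the number of them called lower in bud was 86, 100, 79, 57, 110, 141, 143, 151 and 156. Mean TMM scaling factors were 0.985, 0.876 and 1.17 in bud and 0.943, 0.957 and 0.891 in flesh at weeks 0, 9 and 18. How far these numbers follow the factors was not tested. The 10 most abundant flesh genes of week 18 took 5.15% ± 0.18 of a bud library and 7.03% ± 0.12 of a flesh library at week 18, and 5.86% ± 0.15 of a bud library and 5.51% ± 0.08 of a flesh library at week 0 (SD, n = 4 each). The 10 most abundant bud genes of week 18 took 6.15% ± 0.17 of a bud library and 6.04% ± 0.09 of a flesh library at week 18. At week 0 they took 6.84% ± 0.13 and 4.56% ± 0.22. Each list was chosen by the week 18 level of its own tissue, which favours that tissue.

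Within the last 3 weeks of storage the tissue difference still shifted in 2509 genes (10.1%), when that of week 15 was subtracted, 1199 (4.83%) toward bud and 1310 (5.27%) toward flesh. In a fit of the groups compared alone the numbers were 1542 toward bud and 1235 toward flesh. Soltu.DM.09G005690 had 497, 404, 413 and 392 CPM in buds at week 18 and 0.823, 0.774, 0 and 0 CPM in flesh, against 167, 130.8, 105.7 and 131.9 CPM in buds and 3.07, 2.68, 1.33 and 1.47 CPM in flesh at week 15. No bud of week 15 reached those of week 18, and the shift was 4.07 (SE 0.85, adjusted p = 0.000329). Soltu.DM.08G027270 averaged 36.4 ± 7.14 CPM in bud and 0.304 ± 0.353 CPM in flesh at week 18, and 10.1 ± 1.63 CPM in bud and 2.14 ± 1.65 CPM in flesh at week 15 (SD, n = 4 each, shift 4.79, SE 1.33, adjusted p = 0.00927). Without replicate 3 of the week 15 flesh its shift was 4.13 (edgeR, adjusted p = 0.0964).

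Toward flesh, Soltu.DM.01G000030 was not called at week 18, with 8.97 ± 1.28 CPM in bud and 8.74 ± 0.24 CPM in flesh, and averaged 21.9 ± 5.45 CPM in bud and 3.53 ± 1.35 CPM in flesh at week 15 (SD, n = 4 each, shift -2.60, SE 0.39, adjusted p = 4.53e-07). Soltu.DM.08G028990 was above the flesh in buds at both weeks, with 70.1 ± 8.59 CPM in bud and 6.36 ± 0.23 CPM in flesh at week 18, and 126.9 ± 16.9 CPM in bud and 2.77 ± 1.05 CPM in flesh at week 15 (shift -2.05, SE 0.42, adjusted p = 0.000242). Its difference was thus narrower at week 18.

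Against week 9 the shifts were far more numerous. The difference at week 18 was unequal to that at week 9 in 9689 genes (39%), 4836 toward bud and 4853 toward flesh (19.5% in each direction). These include all 2764 genes called in opposite directions at weeks 18 and 9, which such calls nearly fix. Soltu.DM.09G031730 had 231, 176, 233 and 132.2 CPM in buds at week 18, and 0, 1.30, 1.77 and 0 CPM in flesh. At week 9 it was higher in flesh, with 8.0, 10.3, 10.1 and 11.7 CPM in buds and 25.4, 20.1, 28.9 and 22.04 CPM in flesh. The shift was 9.30 (SE 0.68, adjusted p = 1.58e-23). Its buds averaged 282 CPM at week 0 and 186 CPM at week 15, and its flesh 8.89 and 6.11 CPM, so bud was above flesh at those weeks too. Soltu.DM.02G012480, described above, shifted by 7.87 (SE 0.99, adjusted p = 2.08e-11).

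Soltu.DM.02G014420 averaged 27.1 ± 1.9 CPM in bud and 6.11 ± 2.09 CPM in flesh at week 18, and 82.3 ± 6.82 CPM in bud and 1.08 ± 0.33 CPM in flesh at week 9 (SD, n = 4 each, shift -4.11, SE 0.36, adjusted p = 3.30e-18). Soltu.DM.02G031810 was listed at 0 in 3 buds of week 18 and had 0.0858 CPM in replicate 2, with 1.17, 16.8, 15.6 and 14.7 CPM in flesh, where replicate 1 was far below the others. At week 9 it averaged 19.5 ± 7.16 CPM in bud and 23.2 ± 0.82 CPM in flesh (shift -8.66, SE 1.64, adjusted p = 5.22e-06).

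Tubers that had spent 15 weeks under ethylene and 3 weeks in air shared most of the calls of control tubers at week 18. Bud and flesh differed there in 13929 genes (56.1%), 8465 higher in bud (34.1%) and 5464 lower (22%). Of the genes called in control tubers, 84.7% of the higher and 84.5% of the lower were called the same way, which is 82.6% and 84% of the list after ethylene, and 3 genes in each direction were called the opposite way. Over the 12011 genes the Spearman coefficient between the 2 sets of differences was 0.94. No library enters both comparisons.

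A test of the difference itself called 7 genes (0.0282%), 2 with the control difference shifted toward bud (0.00805%) and 5 toward flesh (0.0201%). At an unadjusted p under 0.05 there were 1531 genes, and DESeq2 called 315. A small count here does not show that the other genes were alike in both sets of tubers. The count was 3, 25 and 16 without replicate 1 of the buds after ethylene, replicate 2 of those buds and replicate 4 of the flesh after ethylene, and 4 without replicate 1 of the control flesh.

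Of the 7 genes, 3 are given by the rule on level. Soltu.DM.05G006490 had 84.6, 71.2, 106.3 and 74.9 CPM in buds and 33.1, 35.2, 33.8 and 23.9 CPM in flesh of control tubers. After ethylene it had 52.7, 60.3, 55.04 and 55.6 CPM in buds and 63, 38.7, 35.7 and 51.5 CPM in flesh, groups that overlapped (shift 1.19, SE 0.22, adjusted p = 0.00388). Soltu.DM.11G020670 averaged 17.7 ± 3.14 CPM in bud and 16.9 ± 1.84 CPM in flesh of control tubers, and after ethylene it had 95.8, 25.96, 58.9 and 61.4 CPM in buds and 13.7 ± 1.99 CPM in flesh (SD, n = 4, shift -2.06, SE 0.35, adjusted p = 0.00064). In a fit of the groups compared alone, the adjusted p of these genes was 0.0579 and 0.0941, and Soltu.DM.05G006490 was not called without replicate 1 of the flesh after ethylene (shift 1.01, adjusted p = 0.0581). Soltu.DM.08G020030 averaged 13.1 ± 1.23 CPM in bud and 50.1 ± 6.73 CPM in flesh of control tubers, against 44.6 ± 14.1 CPM in bud and 43.2 ± 12.4 CPM in flesh after ethylene (SD, n = 4 each, shift -1.99, SE 0.41, adjusted p = 0.0182). It was not called without replicate 1 of any of the 4 groups, each left out in turn, with an adjusted p between 0.0537 and 0.0998.

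The libraries after ethylene also gave a list of genes that the control libraries had not chosen. At 8-fold or more and at least 1 CPM in the higher tissue, 2506 genes were higher in bud after ethylene and 91 lower. In control tubers of week 18, 2289 of the 2506 (91.3%) were called higher in bud, against 33.2% of all genes tested, and 77 of the 91 (84.6%) were called lower, against 21.9%. At control weeks 0, 9, 12 and 15 the numbers were 1493, 1387, 2118 and 2186 of the 2506. The median bud level of the 2506 genes was 1.39, 1.16, 2.48, 3.17 and 3.47 CPM at control weeks 0, 9, 12, 15 and 18, and the median flesh level was listed at 0 at each of these weeks.

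**Figure D5:**
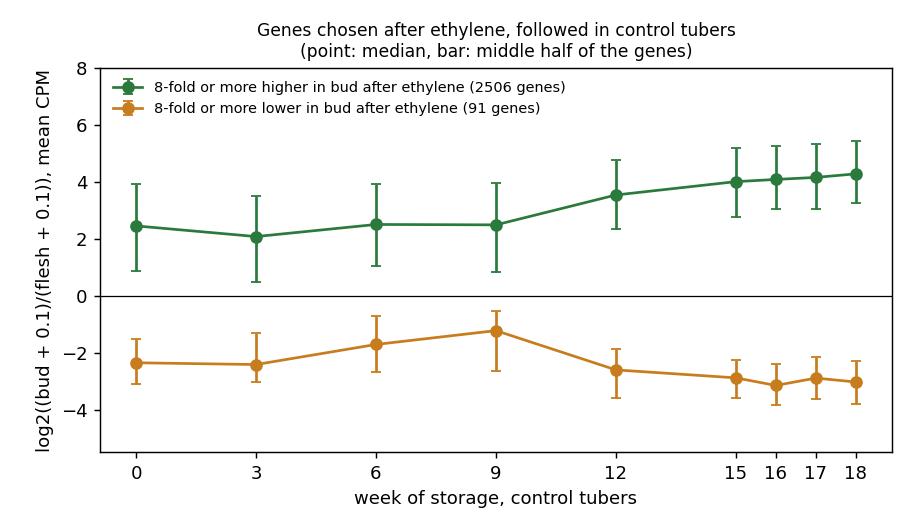
Points give the median log2 ratio of bud to flesh (mean CPM plus 0.1 in each tissue, vertical axis) at each control week (horizontal axis) for the genes 8-fold or more apart after ethylene, with bars from the lower to the upper quartile of the genes. The medians for the genes higher in bud are 2.45 at week 0, 2.48 at week 9 and 4.27 at week 18, and those for the genes lower in bud are -2.36, -1.23 and -3.03. The median flesh level of the genes higher in bud was listed at 0 at these weeks. For such genes the ratio is set by the bud level and the added 0.1, and its size is not a measured fold.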

How the data were processed

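RNA-seq was measured in primary bud and flesh of stored potato tubers. Per the submitters' processing notes the tools included HISAT2, StringTie, SAMtools and Trimmomatic. Their settings, the genome build and the counting of multiply mapped reads are not given in those sources. The authors deposited counts per gene and per transcript, whole numbers with a different total in each library, taken as counts without normalization. The row without a gene ID held 2.13% to 2.30% of a bud library and 2.77% to 2.85% of a flesh library, and was left out. Small counts are sparse beside values of 0: over 8017 genes with both 0 and counts, the median smallest count was 9.

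The gene test was the quasi-likelihood test of edgeR 4.0.16 in R 4.3.3, after a filter (minimum count 10, minimum total 15) and TMM scaling, in 1 fit over all 34 groups, with Benjamini-Hochberg adjustment over all features and a threshold of 0.05. Standard errors come from the F statistic. CPM were computed from the deposited counts. Interactions subtract the tissue difference of another week from that of week 18. Transcript shares were tested with diffSpliceDGE on the 8 libraries. Tests were checked on simulated data. The simulated counts did not imitate the sparse small counts of the deposited libraries, so this check says little about genes at low levels. The alternatives, with limma 3.58.1 and DESeq2 1.42.0, are in the closing section.

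The comparison, its gene rules and lists were chosen with earlier results of these data known. The comparison with week 9, the count among genes with counts in all 8 libraries, the raised floor and the list chosen after ethylene were added after the data were seen. Named genes are at most 2 identifiers in each direction per comparison: those with the largest fold among called genes at 20 CPM or more whose groups do not overlap (against a group listed at 0, ranked by a floor of 3 counts, which was used for the order only), the largest interactions at 20 CPM or more in some group with no group wholly at 0, and for turns and transcript shares the pairs with the largest smaller fold. Gene lists by product name and tissue markers could not be used, since 0 identifiers matched the RefSeq table.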

Additional observations from a re-analysis of the deposited data

Results flagged for a closer look

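Libraries far from the other 3 of their group were found in 9 of 87 sets of 4 values, by the gap to the nearest library as a share of the range, set against Dixon's critical value for 4 samples. Chance flags about 1 in 20 sets. The gap was 0.961 for Soltu.DM.10G029820 in week 18 buds, 0.876 for Soltu.DM.07G003570 in week 18 buds, 0.865 for Soltu.DM.02G031810 in week 18 flesh and 0.938 for Soltu.DM.05G006550 in week 0 buds. It was 1 where 3 libraries were listed at 0 and 1 held counts, in week 18 flesh for Soltu.DM.01G002240 and Soltu.DM.02G012480, in week 18 buds for Soltu.DM.02G031810, in week 0 flesh for Soltu.DM.12G024710 and in week 0 buds for Soltu.DM.11G006410.

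The difference between bud and flesh at week 18 differed, by a test of the difference of differences in edgeR, from that of week 0 in 4561 genes, of week 15 in 2509, of week 9 in 9689 and of week 18 after ethylene in 7. On the log2 scale the shifts of the named genes against week 0 were 9.01 for Soltu.DM.02G012480, 7.39 for Soltu.DM.01G002240, 10.26 for Soltu.DM.03G026560, 10.94 for Soltu.DM.11G006410, -4.34 for Soltu.DM.07G003570, -6.75 for Soltu.DM.12G024710, -8.21 for Soltu.DM.05G006550 and -2.98 for Soltu.DM.12G007600. The value of Soltu.DM.03G026560, Soltu.DM.11G006410 and Soltu.DM.05G006550 is set by a group listed at 0 and has no interpretable size. Against week 15 they were 4.07 for Soltu.DM.09G005690, 4.79 for Soltu.DM.08G027270, -2.60 for Soltu.DM.01G000030 and -2.05 for Soltu.DM.08G028990. Against week 9 they were 7.87 for Soltu.DM.02G012480, 9.30 for Soltu.DM.09G031730, -4.11 for Soltu.DM.02G014420 and -8.66 for Soltu.DM.02G031810. Against the tubers after ethylene they were 1.19 for Soltu.DM.05G006490, -1.99 for Soltu.DM.08G020030 and -2.06 for Soltu.DM.11G020670.

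Outside the genes, the row that names no gene held on average 2.18% of the counts of a week 18 bud library and 2.82% of a flesh library.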

How the results depend on the processing

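Counts of genes called at week 18 stayed within 1.5 times under every alternative that kept the same threshold, between 12665 and 13217 without 1 library in turn, 13711 with DESeq2's size factors, 12844 with the DESeq2 test, 13422 with the groups compared alone and 9732 among genes with counts in all 8 libraries. At 2-fold or more there were 7399 genes and at 8-fold or more 3331. Counts of shifted genes ranged from 4115 to 4380 against week 0, 1899 to 2522 against week 15, 9089 to 9576 against week 9 and 3 to 25 against the tubers after ethylene without 1 library in turn. For the last, the count of 7 became 315 with the DESeq2 test, 170 with low counts raised to a floor and 70 with trended dispersions. Against weeks 0, 15 and 9 the DESeq2 test called 5498, 3145 and 10397 shifted genes. With low counts raised to a floor these counts were 6814, 3283 and 11452. Transcripts called ranged from 11783 to 12414 without 1 library. The share of genes with unequal transcript shares, 6.45% of those tested, ranged from 6.11% to 12.3% without 1 library, and was 12.9% with limma's diffSplice and 4.81% with a minimum of 50 counts. Runs of higher genes numbered 120 at a length of 4 or more and 6 at 8 or more, and runs of lower genes 5 at 4 or more. Genes of 1 tissue numbered 329 for bud and 0 for flesh at 5 CPM, and 14 for flesh at 0.5 CPM. With the row without a gene ID in the total, the 1000 top genes held 50.3% in bud and 60.7% in flesh, and in flesh the top 100 held 25.3% and the top 10 6.83%. The cause of these changes was not tested. No named gene changed sign.

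Replicate numbers are shared by the groups, but no label says whether they pair bud with flesh. Deviations of bud and flesh libraries with the same number correlated between -0.0012 and 0.126, and 2 of 4 buds correlated best with their own number. The mean was 0.047 for the same number and -0.016 for other numbers. So few weak correlations cannot decide whether the libraries are paired. With a replicate block over all libraries 13051 genes were called at week 18, 4577 shifted against week 0, 2582 against week 15, 9517 against week 9 and 37 against the tubers after ethylene, or 30 in the groups compared alone. Under the replicate block 3.59% of genes had unequal transcript shares.

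Low levels limit the data. Small counts are sparse and many low values are listed at 0, so the size of differences in such genes is uncertain, and shifts of genes listed at 0 in flesh could not be estimated.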
